A study of Homo sapiens with 6 samples.

Results

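The genes examined here encode the major histocompatibility complex (MHC) class II molecules and the proteins that load and switch them on. They are HLA-DRA, HLA-DRB1, HLA-DPA1, HLA-DPB1, HLA-DQA1, HLA-DMA, HLA-DMB, CD74 and CIITA. Every probe set whose gene symbol field in the platform annotation is or contains any of these 9 symbols was taken, without regard to its values. That gave 25 of the 33297 probe sets on the array. Of the 25, 13 carry a lone symbol, and 12 carry several and cannot be assigned to a particular gene. HLA-DRA, HLA-DRB1 and CD74 have only probe sets of the shared kind. The 25 probe sets hold 22 distinct rows of values, because 3 of them repeat another probe set of the same symbol exactly, and probe sets of the same gene are not independent measurements.

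Class II molecules are pairs of an alpha and a beta chain that carry peptides from endosomes to the cell surface, where CD4+ T cells read them. CD74, the invariant chain, occupies the peptide groove during transport, and the HLA-DM dimer of HLA-DMA and HLA-DMB then exchanges the remaining CD74 fragment for a peptide. CIITA, the class II transactivator, is the limiting factor for transcription of the family and is itself induced by interferon gamma. It does not bind DNA but is recruited by RFX, CREB and NF-Y proteins on the X, X2 and Y boxes found just upstream of class II genes. Class II is constitutive on professional antigen-presenting cells, and a share of melanomas also express it.

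The samples were 3 IDTC colonies of WM164, a BRAF mutant melanoma cell line, kept for 60 days in 500 nM PLX4032 (vemurafenib), an inhibitor of mutant BRAF, and labelled as resistant. They were set against 3 parent samples of the same line, labelled as untreated controls and, per the series title, exposed to DMSO. Both groups come from a lone cell line. RNA was extracted from every sample on its own, but nothing says that the triplicates were started as independent cultures. The p-values therefore reflect the variation among these 6 arrays, which could be purely technical. Each sample was hybridised to its own whole-transcript Affymetrix array, and values are deposited log2 expression values. Precision is limited by having 3 arrays a group. Array medians lay between 6.25 and 6.34, and Pearson's r over all probe sets was 0.995 to 0.997 within a group and 0.978 to 0.980 between groups. Values repeat exactly on all 3 colony arrays at 762 probe sets and on all 3 parent arrays at 413. The cause was not tested, and the spread there is 0. Among melanocyte lineage markers, PMEL stood at 12.86 in colonies and 12.52 in parent cells and SOX10 at 11.14 in colonies and 10.73 in parent cells, whereas TYRP1, at 4.45 in colonies and 4.69 in parent cells, lay below the array medians. Of 9 such markers 4 were called higher and 1 lower, MLANA by -1.45. Over all 18417 genes with a probe set of their own, 3467 were called higher and 3821 lower. In bulk RNA, fewer cells of a type and less RNA per cell cannot be told apart.

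The class II family did not move as a block. HLA-DMB and HLA-DPA1 rose in the colonies at every probe set, HLA-DMA fell slightly at 2 of its 3 probe sets, and no probe set of HLA-DRA, HLA-DRB1, HLA-DQA1, HLA-DPB1, CD74 or CIITA passed the test. In all, 5 member probe sets were called higher and 2 lower, and 18 did not pass (limma, Benjamini-Hochberg adjusted p under 0.05 over all 33297 probe sets). The 2 called lower hold identical values, as do 2 of the 5 called higher, so these counts repeat some measurements. Of all probe sets on the array, 14.4% were called higher and 15.3% lower. Calls were rarer among dim probe sets: 8.34% of those below the median of all mean levels were called in either direction, against 51.1% of those above it. Of the 18 members below that median 3 were called, and of the 7 above it 4 were called. No member differed by 2-fold or more, and the median difference of the 25 was 0.05 (colony minus parent, log2), beside 0.01 over all probe sets. The 2 groups did not overlap at 9 member probe sets, 6 with the colonies higher and 3 with the colonies lower, where 40.6% of all probe sets showed such a gap.

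**Figure D1:**
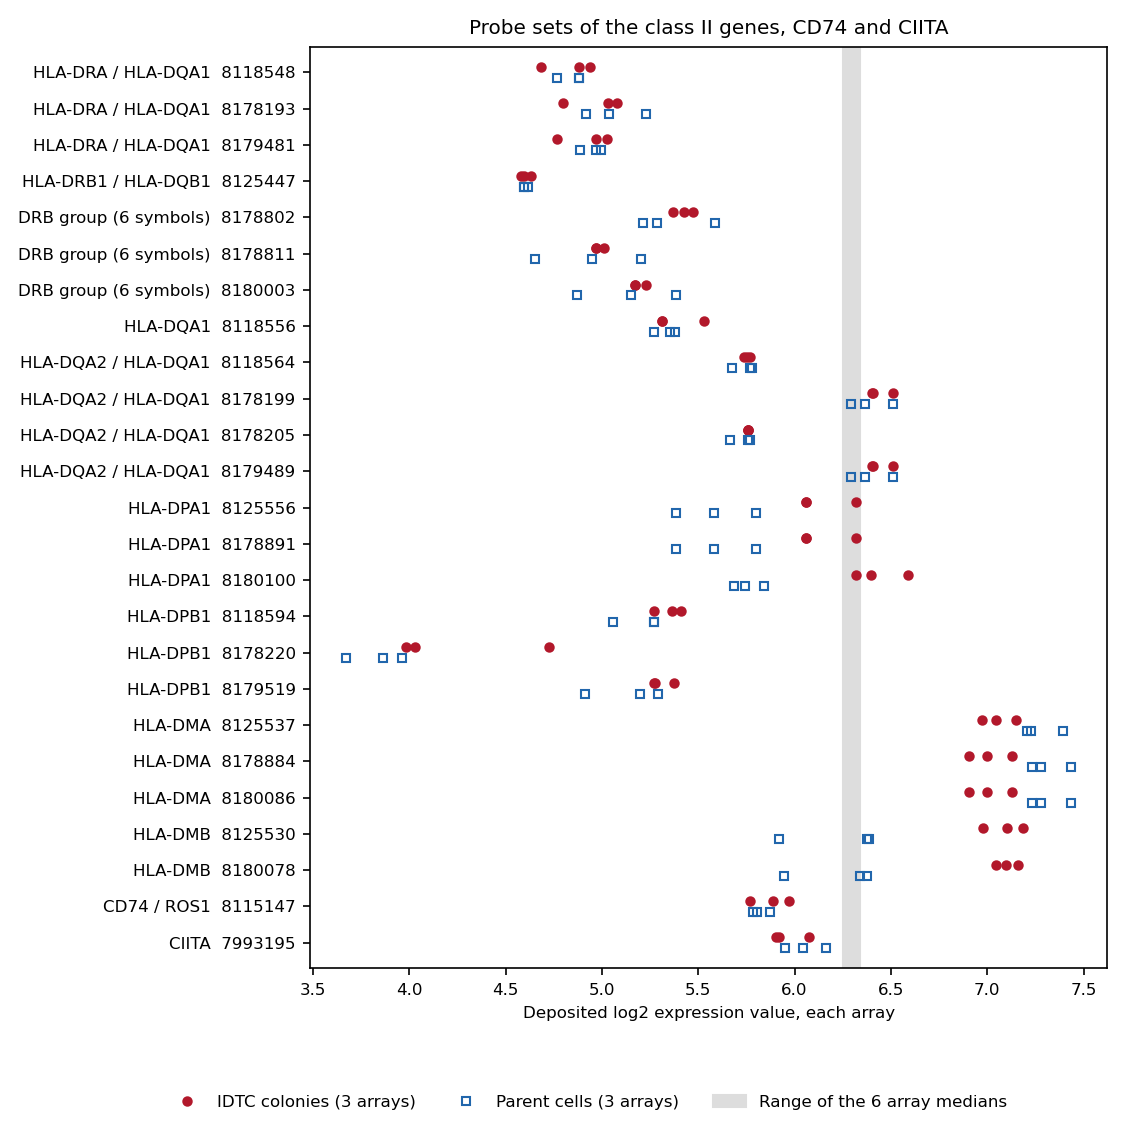
Deposited log2 expression value of each array (x axis) at the 25 member probe sets (rows, with probe set number), colonies as filled circles and parent cells as open squares; the grey band spans the array medians, 6.25 to 6.34. The groups separate at HLA-DPA1, HLA-DMA, HLA-DMB and probe set 8178220 of HLA-DPB1, and 15 rows lie below the array median on all 6 arrays.

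CIITA was measured by probe set 7993195. It stood at 6.07, 5.92 and 5.90 in the colonies and at 5.95, 6.04 and 6.16 in parent cells, below the median of its array every time. The ranges overlapped, with no colony above parent 3. The difference was -0.09 ± 0.08 (log2, SE) with a 95% confidence interval of -0.27 to 0.10 (limma, adjusted p = 0.490). Whether a probe set this dim lies above background was not tested.

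The DR molecule pairs an almost invariant alpha chain, encoded by HLA-DRA, with a highly variable beta chain, encoded by HLA-DRB1 and its copies. All 3 probe sets that name HLA-DRA also name HLA-DQA1. Of these, 8178193 read 5.08, 4.80 and 5.03 in the colonies and 4.92, 5.04 and 5.23 in parent cells. Colonies lay inside the parent range apart from colony 2. Its difference was -0.09 (95% interval -0.35 to 0.17, limma adjusted p = 0.613), and those of the other 2 were -0.01 and -0.03.

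HLA-DRB1 is named by 4 probe sets, of which 8125447 shares it with HLA-DQB1 and the other 3 list 6 symbols (HLA-DRB1, HLA-DRB3, HLA-DRB4, HLA-DRB5, HLA-DRB6 and HLA-DQB1). Probe set 8125447 had 4.58, 4.63 and 4.59 in the colonies and 4.59, 4.59 and 4.62 in parent cells. These are nearly the same numbers, and the difference of 0.00 had a 95% interval of -0.10 to 0.10. The probe sets of 6 symbols differed by 0.05 to 0.06 (limma, adjusted p from 0.729 to 0.852). At 8178802, with the highest mean of the 3, the colonies ranged from 5.37 to 5.47 and parent cells from 5.21 to 5.58, so the parent range enclosed the colonies. HLA-DRB5 has a probe set of its own, 8125436, which differed by -0.01 (95% interval -0.14 to 0.11). All DR probe sets lay below the array median on all 6 arrays.

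HLA-DQA1 encodes the alpha chain of the DQ molecule. Its lone probe set, 8118556, read 5.53, 5.31 and 5.31 in the colonies and 5.36, 5.27 and 5.38 in parent cells, overlapping ranges with a difference of 0.05 (95% interval -0.13 to 0.23, limma adjusted p = 0.713). The 4 probe sets shared with HLA-DQA2, a close copy, differed by 0.01 to 0.05. Among them 8178199 and 8179489 hold identical values, and 8178205 has the same value, 5.76, on all 3 colony arrays. HLA-DQB1, the beta chain partner, differed by 0.03 at its own probe set 8125461 (95% interval -0.35 to 0.40). The 4 that it shares only with HLA-DQB2 differed by -0.08 to 0.01, and none passed.

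HLA-DPA1 and HLA-DPB1 encode the alpha and beta chains of the DP molecule. HLA-DPA1 was called higher at every probe set and HLA-DPB1 at none, though the differences of HLA-DPB1 were also positive. HLA-DPA1 at probe set 8180100 had 6.40, 6.32 and 6.59 in the colonies against 5.69, 5.84 and 5.74 in parent cells. Every colony lay above every parent sample, and the gap between the groups was wider than the spread within either. The difference was 0.68 ± 0.08 (log2, SE), a 1.60-fold rise (limma, adjusted p = 0.00127). The other 2 probe sets of HLA-DPA1, 8125556 and 8178891, hold identical values and read 6.06, 6.06 and 6.32 in the colonies against 5.38, 5.58 and 5.80 in parent cells. They rose by 0.56 ± 0.13 (adjusted p = 0.0171). That call ended without IDTC colony replicate 3 (0.47, adjusted p = 0.0537) and without parent replicate 2 (0.55, adjusted p = 0.0611), whereas the call at 8180100 held in all 12 alternatives in which it was tested. Parent means of HLA-DPA1 lay below the lowest array median.

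HLA-DPB1 did not pass at any of its 3 probe sets. At 8118594 it had 5.27, 5.41 and 5.36 in the colonies and 5.06, 5.27 and 5.27 in parent cells, so the groups met at 5.27. The difference was 0.15 (95% interval -0.04 to 0.33, limma adjusted p = 0.223). At 8178220 the colonies, at 4.03, 4.73 and 3.98, all exceeded the parent samples, at 3.67, 3.96 and 3.87, but colony 2 stood far from the others. The difference of 0.41 (95% interval -0.10 to 0.92) did not pass (limma adjusted p = 0.217), and that interval holds the HLA-DPA1 differences. The third, 8179519, differed by 0.17 (adjusted p = 0.295). Within an array, HLA-DPA1 at 8180100 minus HLA-DPB1 at 8118594 was larger in colonies than in parent cells by 0.53, without overlap. With HLA-DPA1 at 8125556 instead, the shift was 0.41, also without overlap. An exact permutation test (2-sided) of each pair gave p = 0.1, the smallest that 3 against 3 arrays can give and the value that any groups without overlap give. It cannot decide whether the partners diverge, since the separation largely follows from that already seen at HLA-DPA1. The other HLA-DPB1 probe sets were not paired in this way. HLA-DPB2, a pseudogene of the beta chain, differed by 0.03 (95% interval -0.12 to 0.18). HLA-DPA1 and HLA-DPB1 overlap on opposite strands in RefSeq, and whether the probes separate the strands is not given in the sources used here.

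CD74 is named by a lone probe set, 8115147, which also names ROS1, a receptor kinase gene. It stood at 5.97, 5.77 and 5.89 in the colonies and at 5.87, 5.81 and 5.79 in parent cells, with overlapping groups. The difference was 0.05 ± 0.06 (log2, SE) with a 95% interval of -0.10 to 0.21 (limma, adjusted p = 0.611). Like CIITA, it lay below the array median on all 6 arrays.

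HLA-DM is the peptide editor of the pathway, and its chains went opposite ways. HLA-DMB at probe set 8125530 had 7.10, 7.18 and 6.98 in the colonies against 5.92, 6.39 and 6.38 in parent cells. All colonies lay above all parent samples, and parent 1 was the lowest. The difference was 0.86 ± 0.14 (log2, SE), or 1.82-fold (limma, adjusted p = 0.00419). Probe set 8180078 gave 0.88 ± 0.12, or 1.84-fold (adjusted p = 0.00202), and both calls held in every alternative in which they were tested.

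HLA-DMA at probe sets 8178884 and 8180086, which hold identical values, had 6.90, 7.0 and 7.13 in the colonies against 7.23, 7.28 and 7.43 in parent cells. The colonies were lower without overlap, by a margin of the same order as the spread within each group. The difference was -0.31 ± 0.08 (log2, SE), or 0.81-fold (limma, adjusted p = 0.0331). That call ended without IDTC colony replicate 1 (-0.25, adjusted p = 0.102), without IDTC colony replicate 2 (-0.30, adjusted p = 0.100), without parent replicate 2 (-0.32, adjusted p = 0.0767) and without parent replicate 3 (-0.25, adjusted p = 0.0935). The third probe set, 8125537, read 7.05, 6.97 and 7.15 in the colonies against 7.21, 7.22 and 7.39 in parent cells, again without overlap, but did not pass (-0.22, adjusted p = 0.0779). It did pass after quantile normalization and wherever fewer probe sets were tested.

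Within an array, HLA-DMB at 8125530 minus HLA-DMA at 8125537 was 0.06, 0.21 and -0.17 in the colonies against -1.29, -0.84 and -1.02 in parent cells. The shift between the groups was 1.08, and the second pair of probe sets gave 1.18. No test of it is given, because the separation follows from that of each chain. These values do not give the relative abundance of the 2 chains, since probes differ in brightness.

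**Figure D2:**
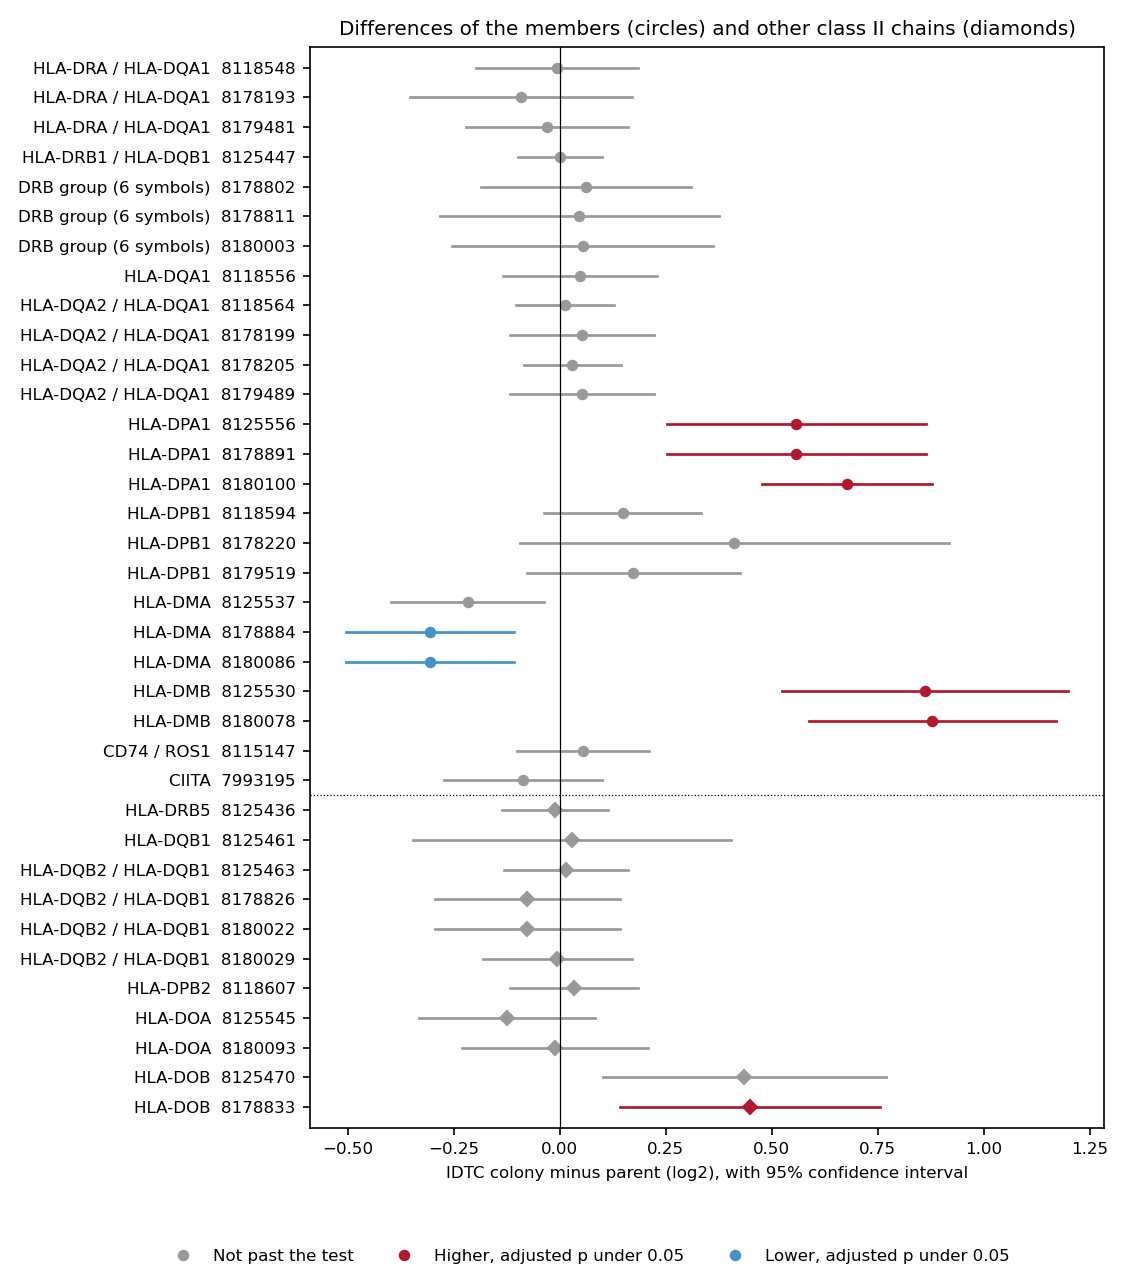
Colony minus parent difference (x axis, log2) with its 95% confidence interval for each member probe set (circles) and each further class II chain probe set (diamonds), coloured by the limma call. HLA-DMB (0.86 and 0.88) and HLA-DPA1 (0.56 to 0.68) lie to the right of 0, HLA-DMA to its left (-0.31 and -0.22), and the DR, DQ, CD74 and CIITA intervals include 0.

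HLA-DO, made of HLA-DOA and HLA-DOB, is an inhibitor of HLA-DM. HLA-DOB at 8178833 read 6.52, 6.47 and 6.08 in the colonies against 5.80, 5.98 and 5.94 in parent cells, without overlap, colony 3 lying nearest to the parent samples. It rose by 0.45 ± 0.13 (log2, SE; limma, adjusted p = 0.0401). The call ended without each of IDTC colony replicates 1 and 2 and parent replicates 1, 2 and 3 (0.37 to 0.48, adjusted p from 0.0845 to 0.129), in alternatives chosen after seeing the data. Its other probe set, 8125470, differed by 0.43 and missed the threshold (adjusted p = 0.0604). HLA-DOA differed by -0.12 and -0.01 at its 2 probe sets, and neither passed. Of the 11 probe sets of further class II chains, 1 was called higher, 0 lower and 10 did not pass (limma), and at an unadjusted p under 0.05 the counts were 2 higher and 0 lower. Over all probe sets 14.4% were called higher and 15.3% lower.

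The promoter windows of the genes that went different ways are shown because the RFX and NF-Y sites that CIITA relies on lie there. RefSeq windows (GRCh38.p14, 250 bases before to 50 after a start site) were found for 7 of the 9 members, with 2 windows for HLA-DPA1. The table held none for HLA-DRA and CIITA. Motifs searched on both strands were the Y box ATTGG, an X box core AGNNACNG, and the X2 box as TGACGTCA or TGCGTCA. Capitals mark the matches to the Y box and the X box core on either strand, and neighbouring or overlapping matches run together.
HLA-DMB, chr6:32940979-32941278, minus strand: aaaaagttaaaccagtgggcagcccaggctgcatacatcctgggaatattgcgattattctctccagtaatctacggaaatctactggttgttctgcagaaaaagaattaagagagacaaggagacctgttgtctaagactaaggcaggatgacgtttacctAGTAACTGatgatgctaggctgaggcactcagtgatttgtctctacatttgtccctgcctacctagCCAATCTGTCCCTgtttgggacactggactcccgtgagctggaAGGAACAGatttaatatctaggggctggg
HLA-DMA, chr6:32953048-32953347, minus strand: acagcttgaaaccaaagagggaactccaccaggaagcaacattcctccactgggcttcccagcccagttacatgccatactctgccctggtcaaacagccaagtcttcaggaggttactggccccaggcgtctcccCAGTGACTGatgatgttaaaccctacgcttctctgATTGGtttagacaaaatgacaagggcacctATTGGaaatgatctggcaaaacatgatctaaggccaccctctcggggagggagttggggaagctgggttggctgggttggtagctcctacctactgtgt
HLA-DPA1, second window, chr6:33073600-33073899, minus strand: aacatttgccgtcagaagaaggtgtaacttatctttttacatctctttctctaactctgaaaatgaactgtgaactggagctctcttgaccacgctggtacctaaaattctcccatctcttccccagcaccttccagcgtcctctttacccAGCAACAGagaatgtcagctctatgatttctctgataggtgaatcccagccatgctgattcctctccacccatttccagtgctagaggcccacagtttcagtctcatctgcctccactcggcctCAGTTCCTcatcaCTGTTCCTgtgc
HLA-DRB1, chr6:32589799-32590098, minus strand: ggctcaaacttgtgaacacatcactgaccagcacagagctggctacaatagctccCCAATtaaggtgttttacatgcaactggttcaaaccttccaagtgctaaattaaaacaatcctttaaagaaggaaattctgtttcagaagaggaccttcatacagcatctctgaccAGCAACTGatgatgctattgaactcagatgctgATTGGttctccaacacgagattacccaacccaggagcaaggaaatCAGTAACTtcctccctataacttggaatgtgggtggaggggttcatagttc

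An X box core followed on the gene's strand by a Y box starting 15 to 40 bases later, an arrangement chosen after the sequences were seen, was present in 3 of the 8 member windows and in 4 of the 6 windows of further class II chains, against 0.718% of all 35116 windows. The 3 members were HLA-DRB1, HLA-DQA1 and HLA-DMA, with starts 33, 34 and 34 bases apart. In HLA-DMB an X box core lies at positions -88 to -81 from the start site with no ATTGG on the gene's strand, and its lone Y box letters are on the other strand at -22 to -18. The second HLA-DPA1 window has an X box core at -99 to -92 and no Y box letters, and the first has neither motif. CD74 holds each motif only on the other strand, and HLA-DPB1 holds Y boxes but no X box core. On its own, the Y box on either strand was in 34.6% of all windows, the X box core in 48.4% and the X2 box in 4.25%, the last in 0 member windows. Only the exact letters TGACGTCA and TGCGTCA counted as an X2 box. The count of 0 therefore does not show that the members lack an X2 box of other letters. The arrangement thus occurred at HLA-DMA, which fell slightly, and at HLA-DRB1 and HLA-DQA1, which did not pass. By exact letters it was absent at HLA-DMB and HLA-DPA1, which rose, and also at CD74 and HLA-DPB1, which did not pass. Near matches were not counted. At 34 bases after the start of the upstream X box core, HLA-DMB reads ATTTG and the second HLA-DPA1 window reads ATAGG, where HLA-DMA reads ATTGG. The absence of a Y box at the genes that rose therefore rests on the exact letters searched. A match is a description of letters and not evidence of binding.

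**Figure D3:**
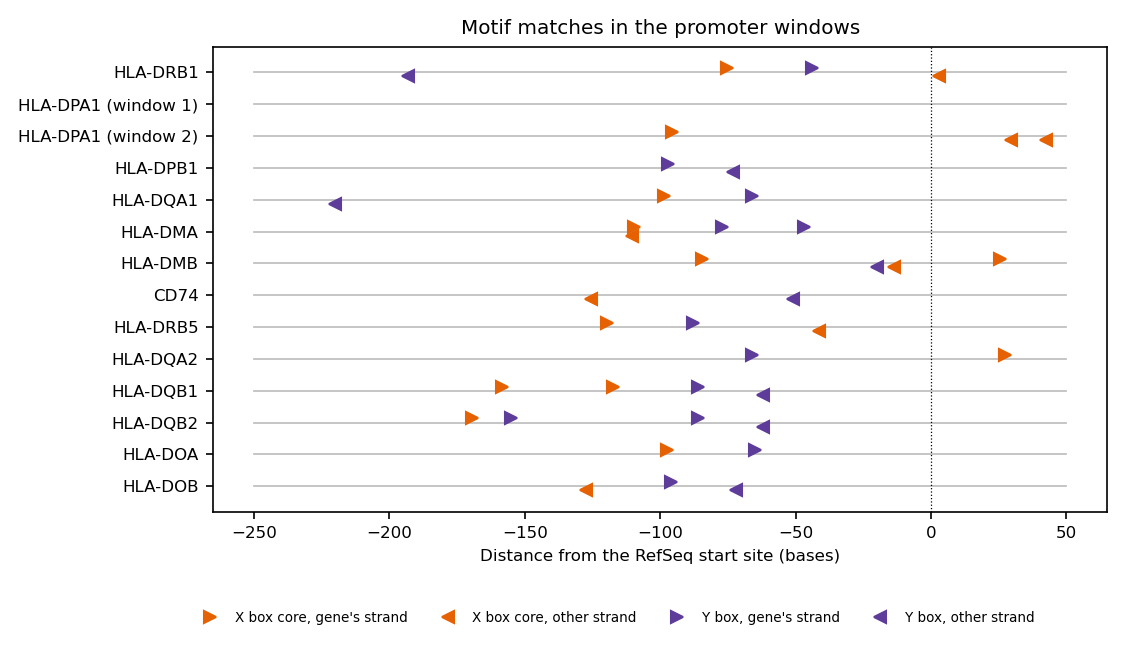
Matches to the X box core (orange) and Y box (purple) by distance from the RefSeq start site (x axis, bases) in the promoter windows of the members and of further class II chains, with right-pointing marks on the gene's strand and left-pointing marks on the other. HLA-DRB1, HLA-DQA1 and HLA-DMA show the X box core followed by a Y box 33 or 34 bases on.

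HLA-DMB and HLA-DPA1 lie in the class II region of chromosome 6, and the genes between HLA-DRA and HLA-DPB1 were read in their RefSeq order (GRCh38.p14). Of 18 protein-coding genes, 14 have a probe set of their own, of which 6 rose, 1 fell and 7 did not pass. Each gene counts by its probe set of highest mean. For HLA-DMA that was 8125537, which did not pass, although its other 2 probe sets were called lower. Over all 18417 genes with a probe set of their own, 3467 rose and 3821 fell. Those that rose were HLA-DOB, PSMB8, TAP1, PSMB9, HLA-DMB and HLA-DPA1. The immunoproteasome subunit genes PSMB8 and PSMB9 rose by 0.54 ± 0.08 and 0.50 ± 0.08, and TAP1, which pumps peptides for class I molecules, by 0.42 ± 0.07 (log2, SE; limma, adjusted p from 0.00334 to 0.00505). TAP2, the partner of TAP1, differed by -0.04 and did not pass. HLA-DMA and BRD2, which follow HLA-DMB in this order, differed by -0.22 and -0.28, of which BRD2, a bromodomain protein gene, passed (adjusted p = 0.00439). Neighbours thus differed in direction, and none of the 4 genes with shared probe sets only was called.

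**Figure D4:**
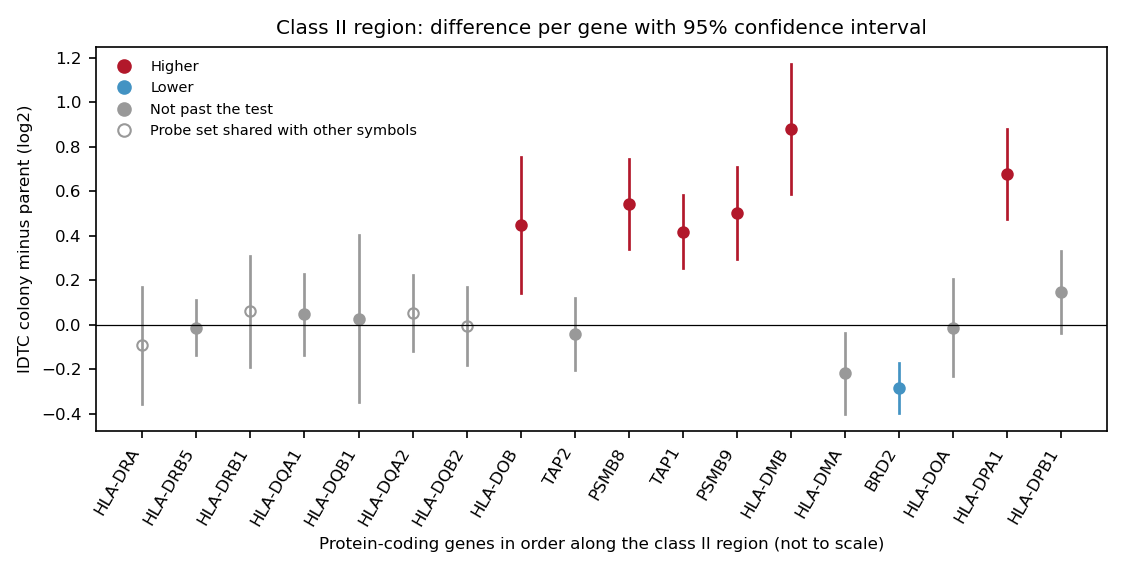
Colony minus parent difference (y axis, log2) with its 95% confidence interval for the protein-coding genes from HLA-DRA to HLA-DPB1 in their order (x axis, not to scale), with 1 probe set per gene and open circles for shared probe sets. HLA-DMB (0.88) and HLA-DPA1 (0.68) stand highest, and BRD2 (-0.28) was called lower.

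The mRNAs of proteins that assemble on class II promoters were called in both directions. Of 11 genes, 4 rose, 4 fell and 3 did not pass, with a median of -0.02. Over all 18417 genes, 3467 rose and 3821 fell, with a median of 0.00, and these counts are the background for each list below. Of the 11, 2 lay below the median of all mean levels. Among all probe sets above that median, 51.1% were called in either direction. RFX5, the DNA-binding subunit of the RFX complex, stood at 9.11 ± 0.06 in colonies and 8.12 ± 0.06 in parent cells (mean ± SD, n = 3 arrays) and rose by 0.999 ± 0.06 (limma, adjusted p = 6.0e-05). Of the other RFX subunits, RFXANK fell by 0.49 on the log2 scale (adjusted p = 0.00501), and RFXAP differed by -0.02 (95% interval -0.20 to 0.16). The acetyltransferase gene KAT2B, whose product acts with CIITA, rose by 1.12 ± 0.06, and SMARCA4, NFYC and EP300 were among the 4 that fell.

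Signalling from interferon gamma to CIITA was read over 11 measured genes, of which 4 rose, 1 fell and 6 did not pass (median 0.14). SOCS3, a feedback inhibitor of cytokine receptors, rose by 1.17 ± 0.12, IRF2 by 0.70 ± 0.05 and the kinase gene JAK2 by 0.36 ± 0.07. The receptor chain gene IFNGR2 was the member that fell (-0.48 ± 0.05). IRF1, which binds the interferon-responsive promoter of CIITA, differed by -0.08 (95% interval -0.32 to 0.17), and IFNG by -0.06. IFNG was dim, at 3.63 in colonies and 3.69 in parent cells, so a change there could be missed. Among 10 genes that can repress CIITA, 3 rose, 4 fell and 3 did not pass (median -0.08). EZH2, a histone methyltransferase of the Polycomb complex, changed by -0.84 ± 0.04 and the deacetylase gene HDAC2 by -0.56 ± 0.07, while the DNA methyltransferase gene DNMT3A rose by 0.46 ± 0.05.

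Interferon-induced genes outside class II rose in 6 of 14 and fell in 0, with 8 not past the test and a median of 0.12. At an unadjusted p under 0.05 the counts were 7 higher and 0 lower (limma). Over all 18417 genes, 3467 rose and 3821 fell. PSMB8 and PSMB9, already counted in the class II region, are among the 6. GBP4, a guanylate-binding protein gene, rose by 1.38 ± 0.17 to 5.93 ± 0.25 in colonies, against 4.55 ± 0.25 in parent cells (limma, adjusted p = 0.00134). NLRC5, the class I counterpart of CIITA, rose by 0.28 ± 0.04 (adjusted p = 0.00351). The chemokine genes CXCL9 (-0.06), CXCL10 (0.08) and CXCL11 (0.16) and the tryptophan-degrading enzyme gene IDO1 (-0.09) did not pass. Their group means, 3.40 to 3.76, lay far below the array medians, so a change there could be missed. Brighter genes that did not pass were WARS1 (11.02 in colonies, 11.04 in parent cells), PSME2 (9.10 in colonies, 9.15 in parent cells) and PSMB10 (6.65 in colonies, 6.62 in parent cells). In class I loading, 3 of 9 genes rose, 2 fell and 4 did not pass (median 0.16), with TAPBP at 1.08, the shared light chain B2M at 0.77 and the chaperone CALR at -0.48.

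Endosomal proteases and their partners, which cut antigens and CD74, rose in 6 of 13 genes, fell in 3 and did not pass in 4 (median 0.09). CTSF, a cathepsin that can process CD74, rose by 1.69 ± 0.04 with the same value on all 3 colony arrays, CTSV by 1.33 ± 0.09 and CTSD by 0.70 ± 0.05 (limma, adjusted p from 3.3e-06 to 0.00018). CTSS, the main CD74 protease of professional antigen-presenting cells, was dim and differed by 0.09 (95% interval -0.06 to 0.24). IFI30, a lysosomal thiol reductase, rose by 0.32 ± 0.08 (adjusted p = 0.0236), a call that ended without IDTC colony replicate 2 and without each of the 3 parent replicates (adjusted p from 0.0519 to 0.0761).

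Of 9 genes of class II turnover and trafficking, 1 rose, 2 fell and 6 did not pass (median -0.05). MARCHF8, a ubiquitin ligase that removes class II from the surface, stood at 5.18 ± 0.13 in colonies and 5.93 in all 3 parent samples, and changed by -0.75 ± 0.07 (limma, adjusted p = 0.000455). The tetraspanin gene CD82 rose by 0.91 ± 0.07 and CD63 changed by -0.34 ± 0.04. Among 5 genes of signalling through CD74 by the cytokine MIF, 1 rose, 0 fell and 4 did not pass (median -0.04), with the same counts of 1 and 0 at an unadjusted p under 0.05 (limma). The one that rose was CD44, the co-receptor of CD74, by 0.39 ± 0.05. The probe set naming MIF and MIF-AS1 differed by -0.03 (95% interval -0.18 to 0.12).

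**Figure D5:**
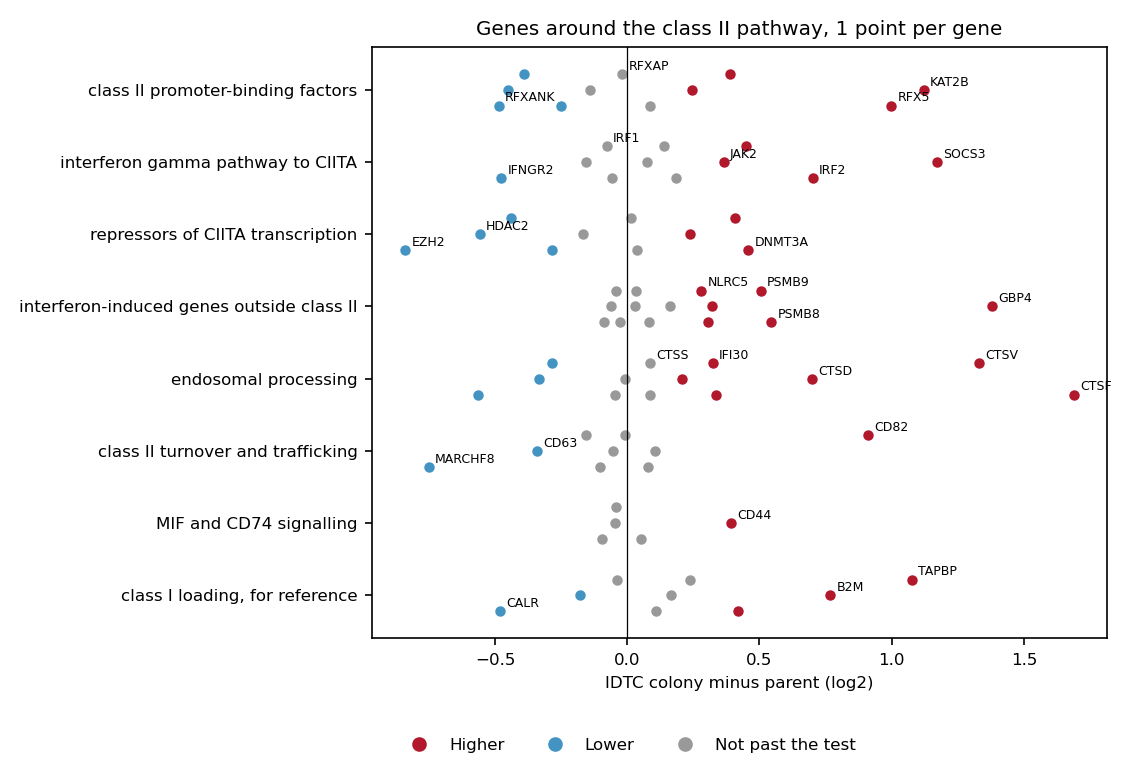
Colony minus parent difference (x axis, log2) of the genes in each list around the class II pathway (rows), 1 point per gene and coloured by the limma call, with the genes named by rule labelled. Promoter-binding factors spread from RFXANK at -0.49 to KAT2B at 1.12, and all 6 interferon-induced genes called lie right of 0.

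Markers of the leukocytes that normally carry class II were read beside these values. Over all 18417 genes with a probe set of their own, limma called 3467 higher and 3821 lower. Of 5 B cell, 6 T and NK cell and 6 endothelial markers, limma called 0 in either direction, and at an unadjusted p under 0.05 the counts were also 0. Most were dim: 4 B cell, 4 T and NK cell and 5 endothelial markers lay below the median of all mean levels. Only 8.34% of all probe sets below that median were called in either direction, so few calls could be looked for. B cell list levels were 5.46 to 5.56 in colonies and 5.42 to 5.62 in parent cells, T and NK cell levels 5.27 to 5.30 in colonies and 5.21 to 5.38 in parent cells, and endothelial levels 5.39 to 5.42 in colonies and 5.34 to 5.47 in parent cells. Of 12 macrophage and dendritic cell markers, 4 were lower and 0 higher in colonies (5 and 0 at an unadjusted p under 0.05), with a mean log2 level over the list of 5.90 to 5.92 in colonies and 6.36 to 6.40 in parent cells. The 4 were LYZ (-2.35), FCER1G (-1.44), CD68 (-1.27) and ITGAX (-0.69), while CD14 and CD163 lay below the array median and did not pass. TYROBP, above the array medians at 7.93 in colonies and 7.86 in parent cells, did not pass either (0.08). The leukocyte marker PTPRC stood at 3.71 in colonies and 3.67 in parent cells and did not pass, and of the other 3 in its list LCP1, an actin-bundling protein gene, rose by 1.07 (list levels 6.005 to 6.08 in colonies, 5.78 to 5.83 in parent cells). Of 8 fibroblast markers, LUM (-0.34) and PDGFRA (-0.57) were lower and 6 did not pass, with list levels of 5.86 to 5.93 in colonies and 5.90 to 5.98 in parent cells. The LUM call ended without each of IDTC colony replicates 1, 2 and 3 and without parent replicate 3 (limma, adjusted p from 0.0778 to 0.113). The part of these markers in the class II values was not tested.

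Genes whose values followed those of a member most closely were sought among 11794 probe sets of 1 symbol above the median level, by Pearson's r over the 6 arrays. For CIITA they were DUX4 (0.99), FAM83H (0.99) and MAB21L4 (0.98). For the CD74 probe set they were RNF207 (0.97), LOC441081 (0.96) and IPO13 (0.95). For HLA-DMA at 8125537, the member probe set with the highest mean value, they were CTNNBIP1 (0.99), ABHD16A (0.99) and KCTD6 (0.99). In all, 309 of the candidates passed 0.9 for HLA-DMA, 24 for CIITA and 10 for CD74. At HLA-DMA the groups did not overlap, so any gene that differs between the groups can reach a high r with it. CIITA and the CD74 probe set did not pass the test between groups. Among 11794 candidates over 6 arrays, such values of r can also arise without any link. Whether the genes named are linked to a member was not tested.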

How the data were processed

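RNA of 3 IDTC colony and 3 parent samples was read on 1-colour whole-transcript arrays. The deposited values are on a log2 scale, 1 per probe set, judging by their range. Affymetrix Expression Console made them, per the submitters' processing notes. Which version, background correction and normalization it used is not given in the sources used here. Arrays have no read depth.

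Of 33297 probe sets, the platform annotation gave 1 symbol to 19460, several to 1754 and none to 12083. The test of colonies against parent cells used limma 3.58.1 in R 4.3.3 (lmFit and eBayes, 2-sided, group only), with Benjamini-Hochberg adjustment over all 33297 and a threshold of 0.05. Lists took each gene's probe set of 1 symbol with the highest mean. All member and further class II chain probe sets were described. In the other lists the genes named were the 3 largest changes past the test plus 13 chosen by role. NFYC, EP300, SMARCA4, IFNG, IDO1, the CXCL genes, WARS1, PSME2, PSMB10 and the region's other genes were named after their values were seen. So were the markers PMEL, SOX10, TYRP1, ITGAX, CD14, CD163, TYROBP and PTPRC. The members, lists and motifs were chosen with earlier results of these data known.

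On simulated arrays with 200 changed probe sets among 33297, the procedure recovered 33 of 50 at a log2 change of 0.5 and 40 of 50 at 1, with 13 calls among the unchanged. In the data 4805 probe sets were called higher and 5095 lower, so the adjusted threshold was stricter in the simulation. Its recovery therefore does not give the sensitivity of the test here, though small changes can still be missed. Alternatives were other scalings, fewer probe sets, a trended robust eBayes, a term for the replicate number, and leaving out each array. Figures and motifs were made in Python 3.11.15.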

Additional observations from a re-analysis of the deposited data

How the results depend on the processing

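The calls at HLA-DMB and at probe set 8180100 of HLA-DPA1 held in every alternative in which they were tested, with differences of 0.71 to 0.96 and 0.60 to 0.73. Leaving out each array in turn gave 3 to 5 members called higher and 0 to 2 called lower. Members called higher numbered 2 with only probe sets above the median of all, which kept 7 of the 25, and 2 with 1 probe set per gene, which kept 6. Members called lower numbered 1 with 1 probe set per gene, and 3 after quantile normalization. No called member changed sign. The replicate numbers of the titles gave little sign of pairing the samples. Deviations of same-numbered arrays correlated at 0.05, -0.06 and 0.06 for replicates 1, 2 and 3. The highest correlations with an array of another number were 0.01, 0.03 and 0.04. With the replicate block, 5 members were called higher and 2 lower, as without it. The block ended the calls of HLA-DOB at 8178833 (0.45, limma adjusted p = 0.0663) and LUM (-0.34, adjusted p = 0.0692). For 53 further genes and probe sets, in alternatives chosen after seeing the data, 646 of 665 values kept their direction and side of the threshold where called, and the changes fell on HLA-DOB, IFI30 and LUM. Of the 25 members, 15 lay below the array median on all 6 arrays, and no background level was given, so a dim signal limits what could be seen there.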
